A study of Mus musculus with 18 samples.

Results

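The comparison set hearts of Kir6.1-deficient mice taken 30 min after lipopolysaccharide (LPS) against hearts of the same genotype taken 3 h after PBS. Each group had 3 arrays, so 6 of the 18 Affymetrix whole-genome mouse arrays of the series entered it, chosen by their labels. Kir6.1, encoded by Kcnj8, forms the pore of a potassium channel that closes when cellular ATP is high (K-ATP channel) and is best known from vascular smooth muscle. LPS, the endotoxin of Gram-negative bacteria, was given at 0.5 µg in PBS, and the PBS mice received the solvent. The control hearts beside which the mutants are set below came from control mice with the same treatments and times, again 3 arrays each. The sources used here name no strain, sex, age or kind of Kcnj8 allele. The labels number the hearts without stating that each is a separate animal, so the p-values rest on array-to-array spread, part of which may be technical.

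LPS did not differ between the groups alone. The LPS hearts were collected 30 min after injection and the PBS hearts after 3 h, and the experiment files of the arrays show that all PBS arrays were hybridized on day 1 and all LPS 30 min arrays on day 3. The day 3 arrays were of another lot and were washed and stained by another fluidics protocol (first wash at 25 °C against 30 °C, first stain of 600 s against 300 s). LPS, time after injection, hybridization day, array lot and fluidics protocol cannot be told apart in any difference given below. The excess of 3' over 5' signal in the array's Gapdh and Actb controls, larger where RNA is shortened, was 0.20 to 0.29 on the mutant LPS 30 min arrays and 0.34 to 0.44 on the mutant PBS arrays, and its part in the results was not tested. In the mutant LPS 3 h group, which is used here for single values, replicate 2 was hybridized on day 1 by the protocol of the PBS arrays and replicates 1 and 3 on day 2 by the protocol of the LPS 30 min arrays.

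LPS is sensed by Toll-like receptor 4 with its partner Ly96 (MD-2), which starts NF-kB signalling and, with a delay, cytokine, chemokine and interferon genes. The first transcripts to appear after almost any stimulus are immediate early genes such as Fos, Jun and Nr4a1, which need no new protein synthesis. Injection and handling also raise glucocorticoids, whose receptor switches on genes such as Per1 and Tsc22d3. Heat shock genes such as Hspa1a and Hspa1b are switched on by heat shock factor 1 when proteins misfold.

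Before the LPS comparison, the targeted gene was read on every array. Kcnj8 (GRCm38.p6 chr6:142564837-142571614) had log2 signals of 5.11, 4.55 and 4.84 in the mutant LPS 30 min hearts and 4.72, 4.43 and 4.35 in the mutant PBS hearts, against 8.77, 8.90 and 8.69 in the control LPS 30 min hearts and 8.52, 8.58 and 8.70 in the control PBS hearts. All mutant arrays lay far below all control arrays, as the labels require. Within the mutants, Kcnj8 was at 4.83 ± 0.28 after LPS and 4.50 ± 0.20 after PBS (mean ± SD, n = 3 each), a log2 difference of 0.33 that did not pass the test (limma adjusted p = 0.157). The other K-ATP subunits did not pass either: the pore subunit Kcnj11 differed by -0.25, the sulfonylurea receptor Abcc8 by -0.06 and the sulfonylurea receptor Abcc9 by 0.09.

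The response at 30 min was small in size. Of 45037 probe sets, 2006 differed between the mutant LPS 30 min and mutant PBS arrays (limma, Benjamini-Hochberg adjusted p under 0.05, 4.45% of those tested), 1014 higher and 992 lower. With 1 probe set for each of 18193 genes, the brightest, 368 genes were higher (2.02%) and 257 lower (1.41%), but 8 genes rose by 1 or more on the log2 scale and 5 fell by 1 or more. The median log2 difference over all genes was -0.0028, and 49.2% of genes were positive. Passed or not, 2247 genes that were higher and 2028 that were lower had no overlap between the groups' 6 arrays. Of the 625 genes that passed, 620 had no overlap. The count of probe sets that passed depended on which arrays set the spread. In a fit to all 18 arrays, where the LPS 3 h groups share the estimate, 22 probe sets passed. Of 46 named genes that passed with the 12 arrays of the 30 min and PBS groups, 4 also passed with all 18, namely Hspa1b, Nr4a1, Dnajb1 and Myocd, and 21 passed whichever of the 6 mutant arrays was left out. Of the remaining 25, Fcgr3, Cspg4 and Tra2a lost the call in all 6 such fits, Cd163, Fos, Gpm6a, Hamp, Irf9, Mtf1 and Nfkbia in 5, B2m, Luc7l3, Ripor2, Spry2 and Xist in 4, Adipoq, Ccnb2, Ly96, Malat1, Mpp5, Nr1d1 and Uchl1 in 3, Kcna5 in 2, and Ddit4 and Inpp4b in 1.

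The chaperones of the HSP70 system led the genes that rose. Hspa1b, an inducible HSP70 gene, had log2 signals of 7.82, 8.32 and 7.35 in the mutant LPS 30 min hearts, against 5.90, 5.98 and 5.93 in the mutant PBS hearts. The lowest LPS array lay more than 1 log2 unit above the highest PBS array. Its log2 difference was 1.90 (SE 0.18), which is 3.73-fold (adjusted p = 0.000209), and all 3 of its probe sets rose. Hspa1a, the neighbouring HSP70 gene, had 5.84, 6.54 and 5.62 against 4.38, 4.49 and 4.79 and rose by 1.45 (SE 0.21, adjusted p = 0.00221). The genes are near-identical copies, so their probes may share transcripts and the 2 differences are not independent. The upstream sequences show how alike the pair is and are printed for that reason, each the 250 bases before the RefSeq start on GRCm38.p6, 5′ to 3′ on the gene's strand, with capitals marking matches to a heat shock element (GAANNTTC) and to the NF-kB site.
Hspa1b, chr17:34959239-34959488, minus strand: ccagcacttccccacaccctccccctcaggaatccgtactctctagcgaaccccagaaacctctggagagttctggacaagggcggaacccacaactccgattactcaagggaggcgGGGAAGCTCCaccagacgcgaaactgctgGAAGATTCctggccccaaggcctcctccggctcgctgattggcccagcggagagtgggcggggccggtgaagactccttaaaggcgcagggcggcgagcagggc
Hspa1a, chr17:34972157-34972406, minus strand: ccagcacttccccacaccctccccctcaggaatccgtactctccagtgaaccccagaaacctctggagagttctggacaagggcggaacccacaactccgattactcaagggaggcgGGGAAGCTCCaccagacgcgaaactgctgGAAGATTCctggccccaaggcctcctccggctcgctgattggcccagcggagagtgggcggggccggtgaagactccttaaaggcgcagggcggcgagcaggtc
The windows were the same at 247 of 250 bases, and both held a heat shock element from -104 to -97 and an NF-kB site match from -133 to -124 relative to the start. The letters GAANNTTC, searched on both strands, occurred in the windows of 7.73% of all 27025 genes with a RefSeq window, and an NF-kB site in 8.23%. A match describes the letters of the window and does not show that a factor binds there.

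Both HSP40 co-chaperones named here rose. Dnajb1, an HSP40 protein that hands clients to HSP70, had log2 signals of 9.62, 9.76 and 9.51 in the mutant LPS 30 min hearts, against 8.62, 8.47 and 8.81 in the mutant PBS hearts, and rose by 0.998 (SE 0.12, adjusted p = 0.000712). Dnaja1, another HSP40 protein, had 10.48, 10.58 and 10.36 against 9.47, 9.46 and 9.82 and rose by 0.89 (SE 0.12, adjusted p = 0.00126). In both genes every LPS array lay above every PBS array, which the choice of leading genes required of Dnajb1. Of 17 measured genes on the heat shock and chaperone list, 7 rose, none fell and 10 did not pass, with a list median of 0.20, where 2.02% of all genes rose and the median over all genes was -0.0028. The further 3 that rose, named after their values were seen, were Hsph1 (0.44), an HSP110 exchange factor, Chordc1 (0.36), a partner of HSP90, and Hspa8 (0.32), the constitutive HSC70. The small heat shock proteins Hspb1 and Hspb8 and the HSP70 co-chaperone Bag3, looked up in the same way, had log2 differences of -0.05, -0.13 and -0.05 and did not pass. The mitochondrial chaperones Hspd1 and Hspe1 had 0.07 and 0.06, and the endoplasmic reticulum chaperone Hspa5 had 0.08. With all 18 arrays 2 list members passed, and with the 16 arrays left after removing the second-day arrays 5 passed. On the mutant LPS 3 h arrays Hspa1b stood at 6.15, 5.56 and 5.28, against 5.90 to 5.98 on the mutant PBS arrays. A heat shock element was found in 3 of the 6 genes of the 7 that rose and have a RefSeq window, namely Hspa1a, Hspa1b and Dnaja1, and in 3 of 8 with a window that did not pass, namely Hspb1, Hspe1 and Hspd1.

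**Figure D1:**
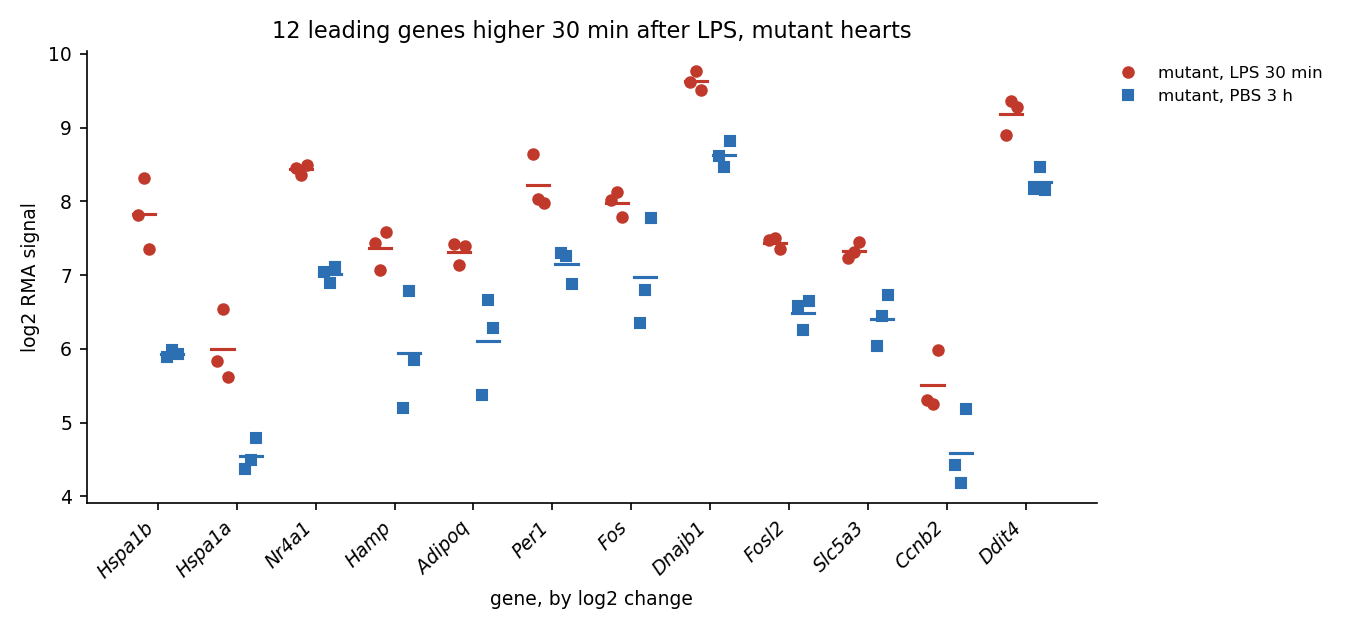
Log2 RMA signal on each array (y axis) of the 12 named genes that led those that rose in mutant hearts 30 min after LPS (x axis, in order of the log2 difference), with symbols that are only clone names left out. Red circles are the 3 mutant LPS 30 min arrays, blue squares the 3 mutant PBS 3 h arrays and bars the group means. Hspa1b and Nr4a1 show wide gaps between the groups, while for Fos the highest PBS array, at 7.77, lies just under the lowest LPS array, at 7.79.

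Among the immediate early transcription factors, a part of the group rose. Nr4a1, an orphan nuclear receptor induced within minutes of many stimuli, had log2 signals of 8.45, 8.36 and 8.49 in the mutant LPS 30 min hearts, against 7.04, 6.89 and 7.11 in the mutant PBS hearts. The arrays were tight within each group and far apart between them. The log2 difference was 1.42 (SE 0.10, 2.67-fold, adjusted p = 5.29e-05). Fos, the AP-1 subunit, had 8.02, 8.12 and 7.79 against 6.35, 6.79 and 7.77. In the PBS group 1 heart thus reached the level of the LPS hearts, and the difference of 1.005 (SE 0.25, adjusted p = 0.0381) passed only with 1 of the 6 leave-one-out fits, the one without PBS replicate 3. Fosl2, the Fos relative Fra-2, rose by 0.95 (SE 0.11, adjusted p = 0.000359) on its brighter probe set, at 7.47, 7.50 and 7.35 against 6.58, 6.26 and 6.64, while its other probe set differed by 0.04. Atf3, a stress-induced repressor of the ATF family, had 6.73, 6.74 and 6.35 against 5.55, 5.62 and 5.92 and rose by 0.91 (SE 0.16, adjusted p = 0.00752).

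Of 26 measured genes on this list, 5 rose, 2 fell and 19 did not pass, with a median log2 difference of 0.15, where 2.02% of all genes rose and 1.41% fell. In control hearts 7 of the list rose and 1 fell, with a median of 0.14. The other genes that changed, named after their values were seen, were Jun, the AP-1 partner of Fos (0.68, adjusted p = 0.0337), Klf10, a TGF-beta-induced zinc finger factor (-0.65, adjusted p = 0.0481), and Egr4 (-0.36, adjusted p = 0.0482). Several classic early genes, chosen the same way, did not pass: Junb was at -0.06, Fosb at 0.11, Myc at 0.01, Nr4a2 at -0.09 and Nr4a3 at -0.11. With 18 or 16 arrays, 1 gene of the list passed. On the 1 mutant LPS 3 h array of day 1, Fos stood at 10.96, Nr4a1 at 8.99 and Atf3 at 8.81. That array lay above all 3 LPS 30 min arrays for each of the 3 genes.

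The upstream windows of Nr4a1 and Fos are shown because they carry several copies of the short CREB-family site TGACG, the core of the cAMP response element, on either strand, and capitals mark these and any NF-kB site match.
Nr4a1, chr15:101266596-101266845, plus strand: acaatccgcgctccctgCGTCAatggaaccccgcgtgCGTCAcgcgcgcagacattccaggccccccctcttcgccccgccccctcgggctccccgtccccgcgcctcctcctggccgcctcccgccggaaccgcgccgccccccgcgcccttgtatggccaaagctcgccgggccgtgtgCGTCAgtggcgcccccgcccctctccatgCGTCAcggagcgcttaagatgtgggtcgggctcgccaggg
Fos, chr12:85473640-85473889, plus strand: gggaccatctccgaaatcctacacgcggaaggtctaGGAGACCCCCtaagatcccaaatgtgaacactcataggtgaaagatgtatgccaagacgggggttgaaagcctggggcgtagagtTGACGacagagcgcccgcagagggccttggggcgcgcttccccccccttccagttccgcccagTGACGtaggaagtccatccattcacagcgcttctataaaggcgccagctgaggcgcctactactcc
Nr4a1 held 4 short sites, the nearest from -40 to -36, and Fos held 2, the nearest from -66 to -62, with an NF-kB site match from -214 to -205. The short site, a motif added after the values were seen, was present in 3 of the 5 list genes that rose and in 11 of the 14 with a window that did not pass, against 19.8% of all genes. The full element TGACGTCA (1.77% of genes), the CArG box (1.62%) and the AP-1 site TGANTCA (7.82%) had no match among the 5. No match says only that the letters are not in this window.

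Of 31 measured signalling and secreted immediate early genes, 2 rose, 1 fell and 28 did not pass, with a median log2 difference of 0.07, where 2.02% of all genes rose and 1.41% fell. Errfi1, a feedback inhibitor of the EGF receptor, had 8.99, 9.03 and 8.90 in the mutant LPS 30 min hearts against 8.30, 8.34 and 8.42 in the mutant PBS hearts and rose by 0.62 (SE 0.10, adjusted p = 0.00472). Adamts1, a secreted protease that cuts proteoglycans, rose by 0.60 (SE 0.10, adjusted p = 0.00421). Spry2, a feedback inhibitor of receptor tyrosine kinases, fell by 0.51 (SE 0.11, adjusted p = 0.0232).

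Among genes known to respond to glucocorticoids, 5 of 17 rose and 1 fell, with a median log2 difference of 0.13, where 2.02% of all genes rose and 1.41% fell. In control hearts 2 of the 17 rose and 4 fell, with a median of -0.19, where 4.34% of all genes rose and 2.52% fell. Per1, a clock repressor that the glucocorticoid receptor induces, had 8.64, 8.03 and 7.98 in the mutant LPS 30 min hearts, against 7.30, 7.26 and 6.87 in the mutant PBS hearts, and rose by 1.07 (SE 0.16, adjusted p = 0.00294). Ddit4, an inhibitor of mTORC1, had 8.90, 9.36 and 9.28 against 8.17, 8.47 and 8.15 and rose by 0.92 (SE 0.19, adjusted p = 0.0152, and 0.0567 without LPS 30 min replicate 2). In both genes the groups did not overlap, which the choice of leading genes required. The further genes of the list that rose were Errfi1, above, Tsc22d3 at 0.47 and Sgk1 at 0.37, the last 2 named after their values were seen. Of the other 12, 1 fell and 11 did not pass, and none of the list passed with all 18 arrays. The one that fell was Zbtb16, a zinc finger repressor that glucocorticoids raise, with 6.58, 6.74 and 6.74 against 7.45, 7.70 and 7.91 (log2 difference -1.004, SE 0.17, adjusted p = 0.00469). Among the 18 clock genes, Per1 rose and Nr1d1, another clock repressor, fell by 0.58 (SE 0.13, adjusted p = 0.0243). The sources used here do not state the time of day at collection.

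Few of the inflammatory genes known from later LPS responses passed, where 2.02% of all genes rose and 1.41% fell. None of 20 cytokine genes passed, 14 of them dim (below the median level of all probe sets). The one with the smallest p-value, Il1b, had 6.03, 5.67 and 5.82 in the mutant LPS 30 min hearts against 5.41, 5.24 and 5.65 in the mutant PBS hearts, a difference of 0.41 (adjusted p = 0.134). None of 22 chemokine genes passed. Cxcl2, a neutrophil attractant, had 4.37, 4.43 and 4.33 against 3.48, 3.47 and 3.95, so its arrays did not overlap, but the difference of 0.75 (SE 0.25) did not pass (adjusted p = 0.101). Cxcl9, an interferon-gamma target, differed by 0.37 (adjusted p = 0.133). None of 15 genes of endothelial activation passed, with F3, the clotting initiator tissue factor, at 0.18 and Plat, tissue plasminogen activator, at 0.19.

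In NF-kB signalling 1 of 16 genes changed, where 2.02% of all genes rose and 1.41% fell. Nfkbia, the inhibitor that NF-kB itself induces, had 11.29, 11.31 and 11.16 in the mutant LPS 30 min hearts, against 10.85, 10.88 and 10.86 in the mutant PBS hearts. The groups did not overlap, and Nfkbia rose by 0.39 (SE 0.09, adjusted p = 0.0220), a call that was lost in 5 of 6 leave-one-out fits. In control hearts it differed by 0.03 (adjusted p = 0.881), at 11.21, 11.18 and 11.25 after LPS against 11.31, 11.27 and 10.98 after PBS. The difference between genotypes did not pass (adjusted p = 0.379). In the Toll-like receptor pathway, with 15 genes measured, Ly96 alone passed and rose by 0.59 (SE 0.12, adjusted p = 0.0159), at 5.49, 5.33 and 5.56 against 4.68, 4.71 and 5.20.

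Nearly all genes of the interferon response had small positive differences, most of which did not pass. Of 26 measured genes, 25 had a positive difference, with a median of 0.22, against a median of -0.0028 over all genes. Among them 1 passed, Irf9, the DNA-binding part of the interferon-stimulated complex, which rose by 0.39 (SE 0.10, adjusted p = 0.0442). The mean level of the list was 7.37 to 7.58 on the mutant LPS 30 min arrays and 7.14 to 7.36 on the mutant PBS arrays. The same list had a median of 0.24 in control hearts, whose arrays share the same split of days. Among 12 genes of MHC class I presentation 1 passed, B2m, the light chain, which rose by 0.40 (SE 0.09, adjusted p = 0.0283). Over all genes 2.02% rose and 1.41% fell.

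Hamp, the iron hormone hepcidin, belonged to the leading genes and to the acute-phase list. It had 7.44, 7.07 and 7.59 in the mutant LPS 30 min hearts, against 5.20, 6.79 and 5.85 in the mutant PBS hearts, and rose by 1.42 (SE 0.36, adjusted p = 0.0411). The PBS hearts were widely spread, and the call held in 1 of 6 leave-one-out fits, the one without PBS replicate 2. Stat3, the transcription factor of IL-6 signalling on the same list, fell by 0.64 (SE 0.11, adjusted p = 0.00497) on its brightest probe set, but its next brightest differed by -0.07 and another rose by 0.34. The remaining 20 of 22 genes did not pass, where 2.02% of all genes rose and 1.41% fell.

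Few genes of metabolism and of the contractile heart passed, where 2.02% of all genes rose and 1.41% fell. None of 23 genes of oxidative phosphorylation passed, with Cycs, cytochrome c, at 0.16 and Uqcrc1, a subunit of complex III, at -0.13. Of 22 genes of fatty acid oxidation 1 fell, Acads, the short-chain acyl-CoA dehydrogenase (-0.45, SE 0.08, adjusted p = 0.00824). None of 14 ribosomal protein genes, 13 calcium-handling genes, 12 natriuretic and stress genes, 16 hypoxia genes, 16 genes of the unfolded protein response and 17 vasoactive genes passed. Ryr2, the calcium release channel, differed by 0.15, and Vegfa, a hypoxia target, by 0.29 (adjusted p = 0.0603). Of 14 cardiac potassium channel genes, Kcna5, the Kv1.5 channel, rose by 0.59 (SE 0.12, adjusted p = 0.0147). Of 9 metallothionein and zinc genes, the metal-sensing factor Mtf1 rose by 0.27 (SE 0.07, adjusted p = 0.0381) on 1 of 5 probe sets, the others lying between -0.23 and 0.12, and the mean of its probe sets gave 0.04. Of 23 splicing factors, Luc7l3 rose by 0.39 (SE 0.09, adjusted p = 0.0283) and Tra2a by 0.32 (SE 0.09, adjusted p = 0.0465), but the 5 other probe sets of Tra2a had negative differences.

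**Figure D2:**
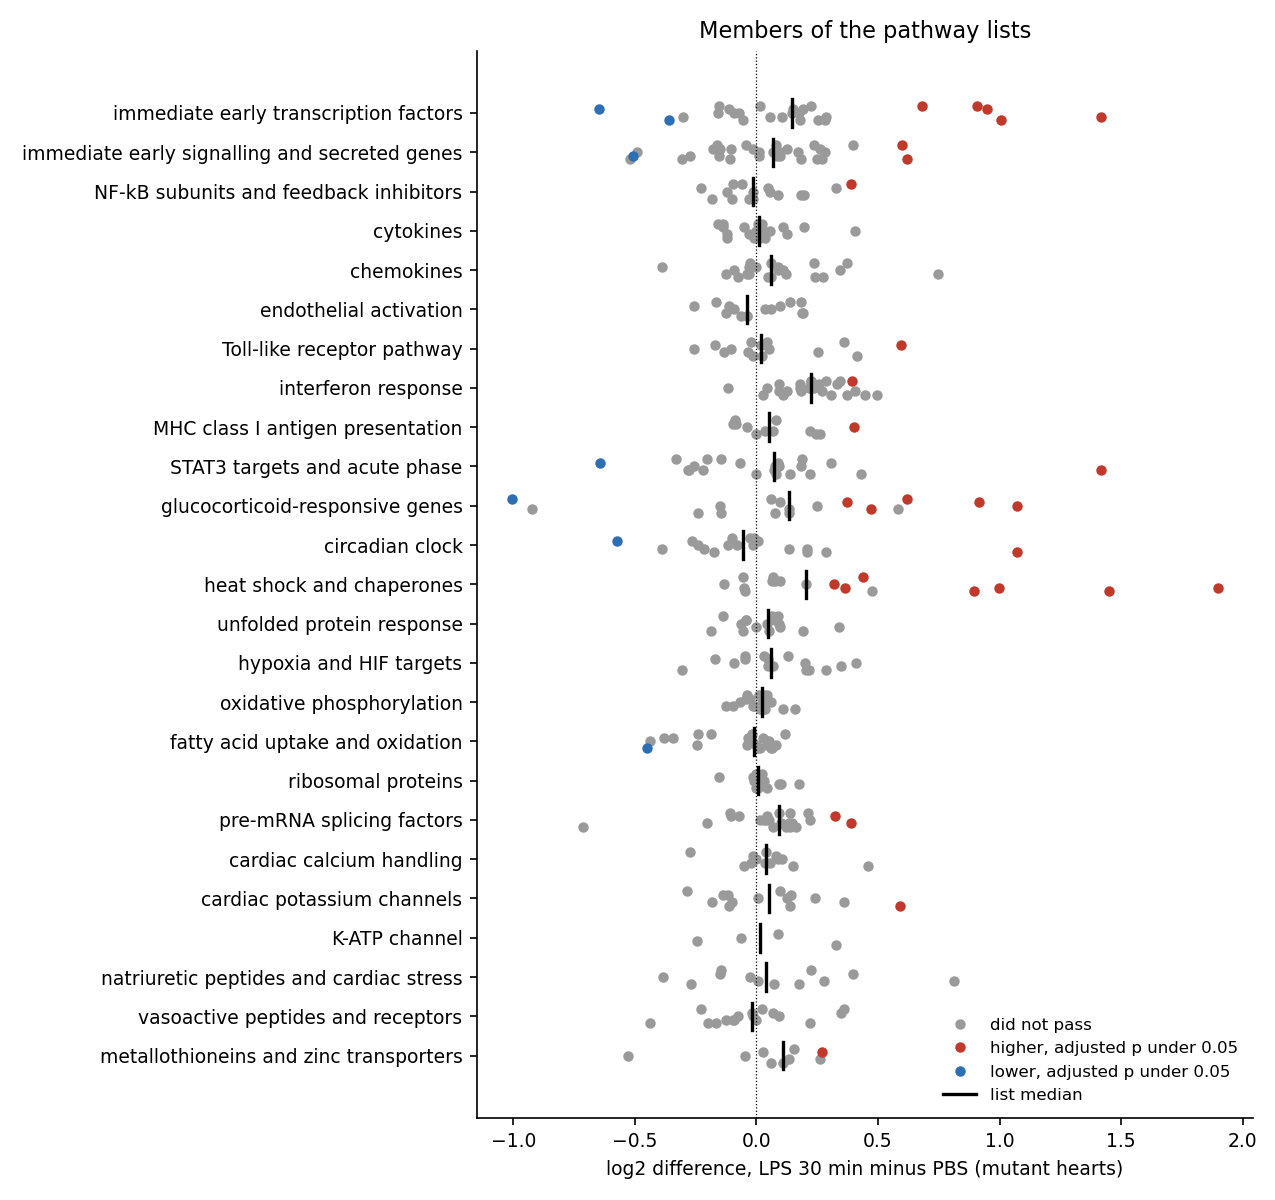
Log2 difference between the mutant LPS 30 min and mutant PBS hearts (x axis) for the measured members of each pathway list (rows). Red and blue points passed the test as higher and lower, grey points did not, and the black bar is the list median. Heat shock genes hold 7 red points up to 1.90, while cytokines, chemokines and endothelial activation hold none.

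Cell type markers were those of heart tissue in both groups. The mean log2 level of 12 cardiomyocyte markers was 13.65 to 13.68 on the mutant LPS 30 min arrays and 13.60 to 13.71 on the mutant PBS arrays, and none passed. No neutrophil (11), platelet (9), T and NK cell (10), B cell (7), erythroid (4), lung (8) or skeletal muscle (9) marker passed. Over all genes 2.02% rose and 1.41% fell. Of 14 macrophage markers, the Fc receptor Fcgr3 rose by 0.33 (adjusted p = 0.0328) and the scavenger receptor Cd163 by 0.32 (adjusted p = 0.0408). Of 12 smooth muscle and pericyte markers Cspg4 fell by 0.35 (adjusted p = 0.0328) while its other probe set differed by 0.09, and Uchl1 of the 6 nerve markers rose by 0.48 (adjusted p = 0.0159). In bulk tissue, fewer cells of a type and less RNA per cell cannot be told apart. Adipoq, the fat hormone adiponectin, was the exception by size: 7.42, 7.14 and 7.40 in the mutant LPS 30 min hearts against 5.38, 6.67 and 6.28 in the mutant PBS hearts, a rise of 1.21 (SE 0.27, adjusted p = 0.0220) that did not pass in 3 of 6 leave-one-out fits. Over the 6 fat markers the mean level was 6.19 to 6.34 in the LPS hearts and 5.53 to 5.95 in the PBS hearts, 5 were positive and 1 passed. Ucp1, the uncoupling protein of brown fat, chosen after its values were seen, was at 0.97 (adjusted p = 0.327).

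The remaining leading genes that rose had other roles. 2210407C18Rik, left out of the leading genes because its symbol is only a clone name and named here after its values were seen, had 9.34, 8.99 and 8.86 in the mutant LPS 30 min hearts against 7.86, 7.82 and 7.86 in the mutant PBS hearts and rose by 1.21 (SE 0.22, adjusted p = 0.00772). In control hearts it had a log2 difference of -0.65 that did not pass (adjusted p = 0.0901), and the difference between genotypes did not pass either (1.86, SE 0.31, adjusted p = 0.113). Slc5a3, the myo-inositol transporter of osmotic stress, had 7.23, 7.32 and 7.45 in the mutant LPS 30 min hearts against 6.04, 6.44 and 6.73 in the mutant PBS hearts and rose by 0.93 (SE 0.15, adjusted p = 0.00467), while its 2 dim probe sets differed by 0.02 and -0.01. Ccnb2, a mitotic cyclin, had 5.31, 5.26 and 5.98 against 4.42, 4.18 and 5.18 and rose by 0.92 (SE 0.22, adjusted p = 0.0299), a call lost without LPS replicate 3 or without PBS replicate 1 or 2.

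Myocd, Nr2f2 and Prox1 were among the leading genes that fell, each on 1 of several probe sets. Myocd, the co-activator of serum response factor in cardiac and smooth muscle, had 5.52, 5.87 and 5.93 in the mutant LPS 30 min hearts, against 7.13, 6.78 and 6.98 in the mutant PBS hearts. Each LPS array lay below each PBS array, which the choice of leading genes required. It fell by 1.19 (SE 0.14, 2.28-fold, adjusted p = 0.000487), while its other probe set differed by -0.13. Nr2f2 (COUP-TFII), which sets venous identity, fell by 0.87 (SE 0.09, adjusted p = 0.000315) on 1 of 6 probe sets, the other 5 lying between -0.17 and 0.20. Prox1, the regulator of lymphatic endothelium also used by cardiomyocytes, fell by 0.94 (SE 0.15, adjusted p = 0.00400) on 1 of 3 probe sets.

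Cited2 and Txnip fell on all of their probe sets. Cited2, a CBP/p300-binding brake on hypoxia-inducible factor, had 8.18, 8.10 and 8.08 in the mutant LPS 30 min hearts against 9.26, 9.22 and 8.94 in the mutant PBS hearts, and fell by 1.02 (SE 0.10, adjusted p = 0.000209). Its second probe set fell by 1.37. Txnip, the thioredoxin-binding protein that limits glucose uptake, had 10.35, 10.16 and 10.56 against 11.57, 11.35 and 10.95 and fell by 0.93 (SE 0.13, adjusted p = 0.00164). For both, each mutant LPS array lay below each mutant PBS array, which the choice of leading genes required. In control hearts Txnip differed by -0.16 (adjusted p = 0.498), at 10.44, 10.31 and 10.44 after LPS against 10.50, 10.55 and 10.63 after PBS. Its second probe set differed there by 0.26. The difference between genotypes did not pass on either probe set (adjusted p = 0.242 and 0.161).

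Malat1, the abundant nuclear long noncoding RNA, had 9.77, 8.71 and 9.53 in the mutant LPS 30 min hearts, against 9.99, 10.69 and 11.31 in the mutant PBS hearts, and fell by 1.33 (SE 0.31, adjusted p = 0.0283). Of its 7 probe sets 4 fell, and the call was lost without LPS replicate 2, PBS replicate 2 or PBS replicate 3. The other leading genes that fell were Inpp4b, a phosphoinositide phosphatase (-1.13), Mpp5, the polarity protein PALS1 (-0.97), Gpm6a, a neuronal membrane glycoprotein (-0.88), Brd2, a bromodomain reader of acetylated histones (-0.88), and Gpc3, a cell-surface proteoglycan (-0.84). In 4 of these 5 genes the other probe sets did not pass, with 0.12 for Inpp4b, 0.0002 and -0.06 for Mpp5, -0.38 for Gpm6a and 0.09 for Brd2, and Gpc3 had no other. The mean of the probe sets gave -0.51 for Inpp4b, -0.34 for Mpp5, -0.63 for Gpm6a and -0.39 for Brd2.

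**Figure D3:**
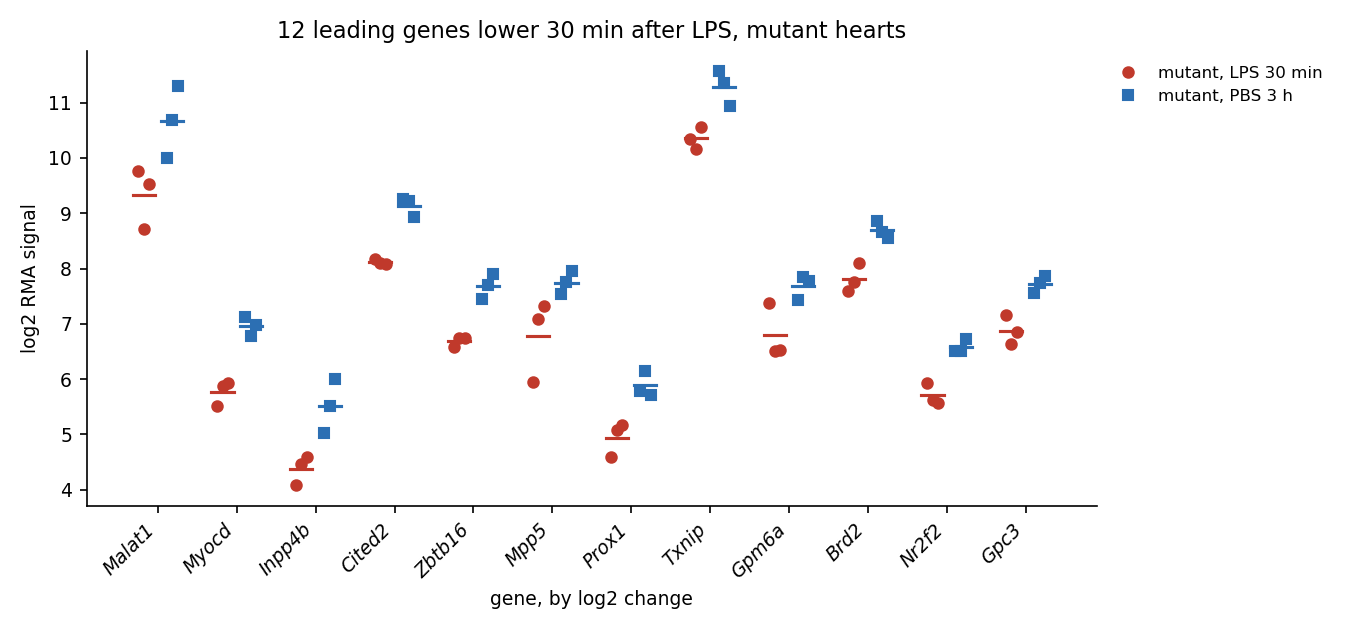
Log2 RMA signal on each array (y axis) of the 12 named genes that led those that fell in mutant hearts 30 min after LPS (x axis, in order of the log2 difference). Red circles are the 3 mutant LPS 30 min arrays, blue squares the 3 mutant PBS 3 h arrays and bars the group means. Cited2 is tight at 8.08 to 8.18 after LPS, while Mpp5 spreads over more than 1 unit.

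In the mutant LPS 3 h hearts, day and fluidics protocol varied within the group. Some genes that fell at 30 min followed that split when set against the PBS range, while most of the leading ones did not. In all of the leading ones but Gpm6a, however, the day 1 array lay above both day 2 arrays. Cited2 stood at 9.27 on LPS 3 h replicate 2, which shares day 1 with the PBS arrays, and at 7.23 and 7.08 on replicates 1 and 3. Stat3 stood at 10.50 on replicate 2 and at 8.60 and 8.65 on the others, Txnip at 11.76 against 10.68 and 10.67, and Brd2 at 8.67 against 7.90 and 7.66. In these 4 genes, chosen after their values were seen, the day 1 array lay within or above the mutant PBS range and both day 2 arrays lay below it. Replicates 1 and 3 were also those with the highest 3' over 5' excess (up to 1.37, against 0.38 on replicate 2), and the part of any of these in the falls was not tested. Among the leading genes that fell, Inpp4b showed the same split, at 5.58 on replicate 2 and 4.18 and 4.56 on the others. Malat1, Myocd, Zbtb16, Mpp5, Prox1, Gpm6a, Nr2f2 and Gpc3 did not show it against the PBS range. In these genes except Gpm6a replicate 2 was still the highest of the LPS 3 h arrays. Mpp5 stood at 7.45 on replicate 2 and at 6.38 and 6.39 on the others. Prox1 stood at 4.98 against 3.54 and 3.28, and Gpc3 at 7.26 against 5.88 and 6.70. Gpm6a stood at 6.84 on replicate 2 against 7.10 and 4.48. Myocd stood at 5.96 on replicate 2 and at 5.26 and 5.72 on the others.

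The size of change also differed between probe sets of a gene, mostly among those that fell. Of 93 probe sets that fell by 1 or more, 83 carried 1 gene symbol, and 5 of these were the brightest of their gene. The other 78 came from 67 genes, whose brightest probe sets had a median difference of -0.03 and fell in 4 genes. Being brightest was judged over the same arrays, so a fall lowers a probe set's own chance of it. Ddx6, an RNA helicase of P-bodies, fell by 2.64 (SE 0.30, adjusted p = 0.000385) on one probe set, at 4.40, 5.60 and 6.05 in the mutant LPS 30 min hearts against 7.75, 7.91 and 8.32 in the mutant PBS hearts, while its brightest rose by 0.34. Atrx, a chromatin remodeller, fell by 1.72 on one probe set and its brightest differed by 0.11, and Clip1, a microtubule-end protein, fell by 1.89 on one and its brightest differed by -0.10. These 3 were chosen after their values were seen. Of the 78 probe sets, 64 also fell in control hearts, as did 75 of all 93. The control hearts were hybridized on the same days. Among 14 probe sets that rose by 1 or more, 12 had 1 symbol and 8 of those were the brightest. In the leading genes, 3 of the 5 that rose and have several probe sets had another one that passed in the same direction (Hspa1b, Hamp and Dnajb1), as did 4 of the 11 that fell (Malat1, Cited2, Zbtb16 and Txnip).

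**Figure D4:**
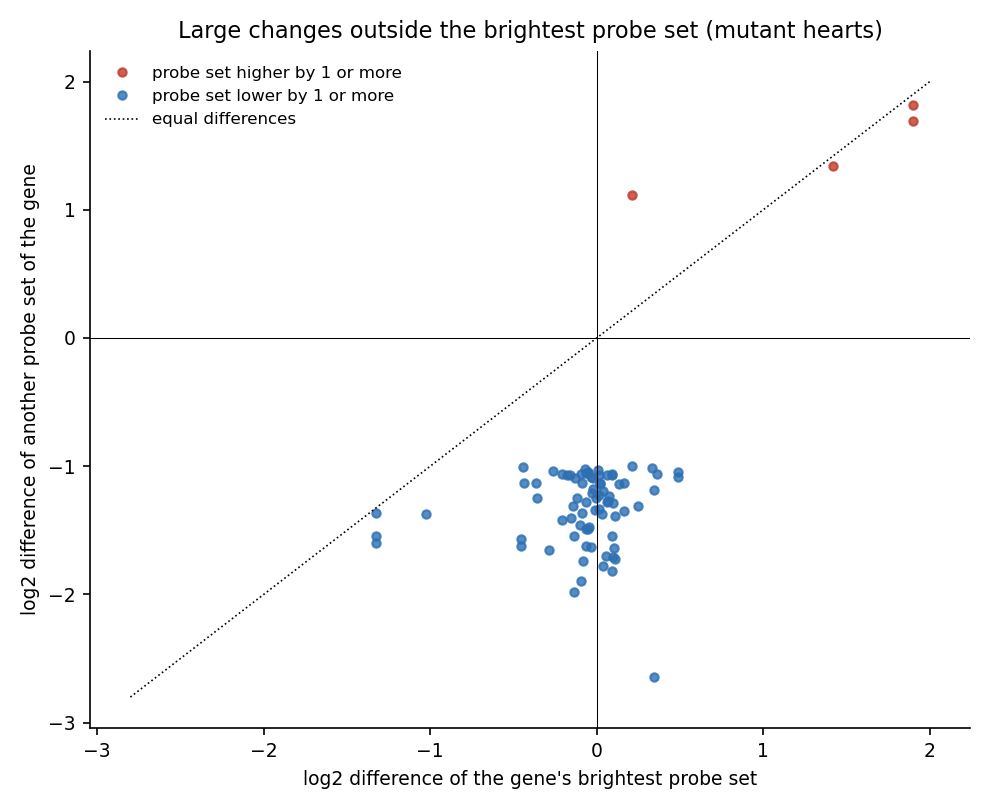
Each point is a probe set that changed by 1 log2 unit or more in mutant hearts and is not the brightest of its gene. The y axis is its log2 difference, LPS 30 min minus PBS, the x axis that of the gene's brightest probe set, and the dotted line marks equal differences. The red points of Hspa1b and Hamp lie near the line, that of Cdc20 lies off it at 1.11 against 0.21 for the brightest probe set, and most of the 78 blue points lie around 0 on the x axis.

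Control hearts, compared in the same way on their own arrays, showed a response of overlapping make-up. There 789 genes were higher (4.34%) and 458 lower (2.52%) after 30 min of LPS. Of the genes that rose in mutant hearts 111 also rose in control hearts (30.2% of the mutant and 14.1% of the control list), and of those that fell 74 also fell (28.8% and 16.2%). Of the 625 genes called in mutant hearts, 557 (89.1%) had the same sign in control hearts. The matching share over all genes is not given here. The comparisons share no array, but both set day 3 against day 1, so LPS and hybridization day cannot be told apart in it.

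The leading genes described next had effects of different size in the genotypes, and none passed the test of that difference. Nr4a1 rose by 1.42 in mutant hearts and by 2.43 in control hearts (difference -1.01, SE 0.15, adjusted p = 0.0609). Hspa1b rose by 1.90 in mutant hearts and 1.10 in control hearts (adjusted p of the difference = 0.366), Fos by 1.005 in mutant hearts and 1.52 in control hearts (0.703), and Adipoq by 1.21 in mutant hearts and 2.13 in control hearts (0.465). Cited2 fell by 1.02 in mutant hearts and had -0.22 in control hearts (0.125), Zbtb16 fell by 1.004 in mutant hearts and by 2.06 in control hearts (0.198), and Ddit4 rose by 0.92 in mutant hearts and had -0.03 in control hearts (0.319). A p above the threshold does not show that the genotypes responded alike.

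For 2 of 45037 probe sets (0.00444%) the difference between genotypes passed, and 4263 (9.47%) had an unadjusted p under 0.05. Fam107a, an actin-binding protein induced by glucocorticoids and stress, passed on a probe set that is not its brightest, and its brightest did not pass. It stood at 6.10, 6.02 and 5.81 in the mutant LPS 30 min hearts against 5.05, 5.39 and 5.09 in the mutant PBS hearts, a rise of 0.80 (adjusted p = 0.00438). In control hearts it stood at 5.28, 5.21 and 5.76 after LPS against 6.11, 6.05 and 6.05 after PBS, a fall by 0.65, so that the effects differed by 1.45 (SE 0.19, adjusted p = 0.0305). Ripor2, an inhibitor of RhoA in leukocytes and hair cells, moved the opposite way on its brightest probe set. It stood at 5.98, 5.76 and 6.05 against 6.55, 6.22 and 6.29 in mutant hearts, a fall by 0.42 (adjusted p = 0.0382), and at 6.84, 6.89 and 6.66 against 6.06, 5.86 and 6.08 in control hearts, a rise of 0.80. The effects differed by -1.22 (SE 0.15, adjusted p = 0.0305). On the other Ripor2 probe sets the effects differed by -0.42, -0.23 and -0.25, and none of these passed. In both genes the arrays of each genotype did not overlap between LPS and PBS. Neither call held with 18 or 16 arrays, nor in 7 of the 12 fits that each left out 1 array.

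**Figure D5:**
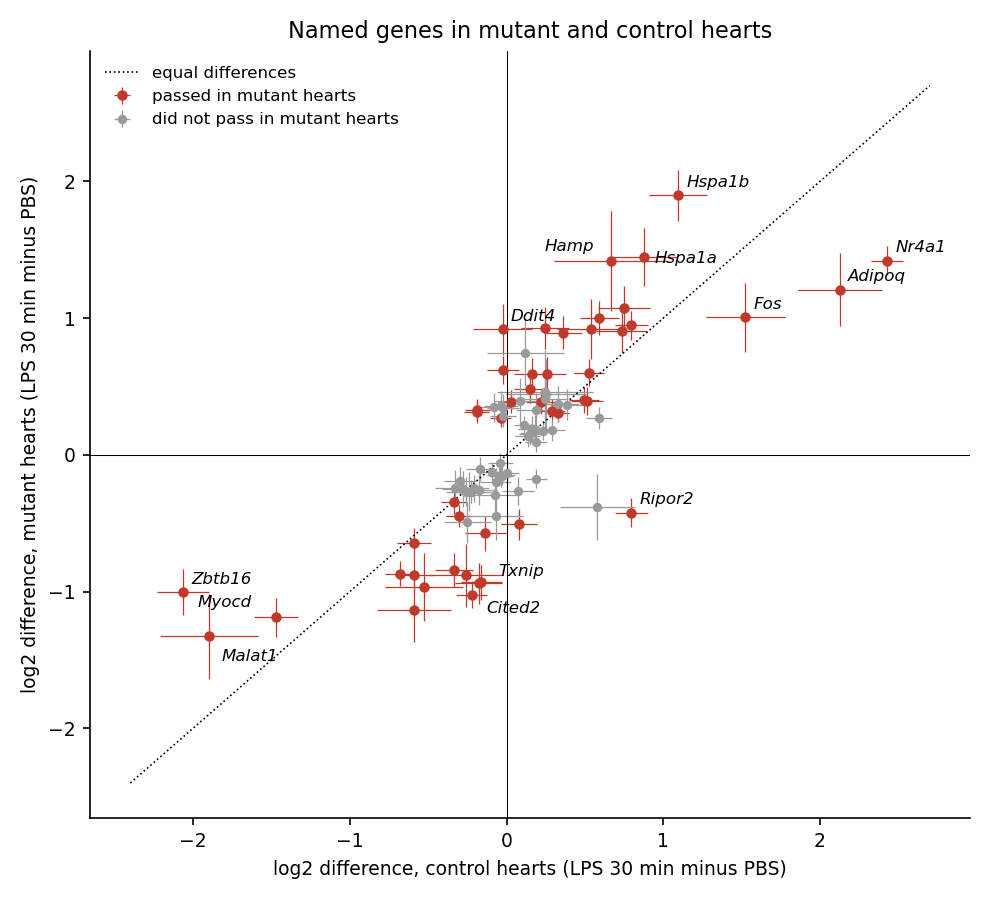
Log2 difference, LPS 30 min minus PBS, of the 90 named genes in mutant hearts (y axis) and control hearts (x axis), with standard errors of the fit as bars. Red points passed in mutant hearts, grey points did not, and the dotted line marks equal differences. Hspa1b lies above the line, Nr4a1 and Adipoq lie below it, and Ripor2 has opposite signs.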

How the data were processed

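The series holds 18 Affymetrix arrays of heart RNA, each with 1 colour. The deposited log2 values come from RMA, per the submitters' processing notes. Its version and settings were not stated there. RMA compresses small signals, so changes of dim probe sets are understated. Day, lot and fluidics protocol are text fields of the arrays' experiment files and hold no measurement.

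After 64 Affymetrix controls were left out, 45037 probe sets were tested with limma 3.58.1 (R 4.3.3). The linear model had 4 means, LPS 30 min and PBS in each genotype, over 12 arrays, with 8 residual and 6.53 prior degrees of freedom. Adjustment was by Benjamini-Hochberg with a threshold of 0.05. The LPS 3 h arrays play no part in the comparison and stayed out. Among them 2 have a high excess of 3' over 5' signal that would enter the shared spread, and the others do not. Contrasts gave the LPS effect in mutant hearts, in control hearts and their difference. Errors of differences are standard errors of the fit. The precision is limited by 3 arrays per group.

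The platform annotation gave 34945 probe sets 1 symbol, 932 several and 9160 none. Each of 18193 genes was read on its brightest probe set (by mean over the 12 arrays). Of 627 entries on 40 gene lists, 576 were measured. Named genes were the 4 K-ATP subunits, the 12 largest called changes in each direction without overlap between the groups' arrays and with a higher mean of at least 4.84, the median of all values (clone and model symbols were skipped), and from each list up to 4 members that passed, or the 2 with the smallest p-value. For the genotype difference the rule takes up to 6 genes in each direction. Any other gene is said to be chosen after its values were seen. The lists, the rule and the choice of arrays were made with earlier results of these data known. Upstream windows are from RefSeq, GRCm38.p6.

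Same-numbered arrays deviated together with correlations of 0.19, 0.06 and 0.08, against at most -0.10, 0.10 and 0.06 with arrays of other numbers. The numbers were taken as names in the main fit, and a fit with replicate number as a block is among the other settings. On simulated data for this comparison with 45037 probe sets, 62 of 100 probe sets changed by 0.5 and 95 of 100 changed by 1 were recovered, with 8 false calls. The simulated noise was drawn separately for each probe set and array, with no shift by day, lot or protocol. The simulation therefore checks the fit and does not say how many calls in the data come from such shifts.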

Additional observations from a re-analysis of the deposited data

Results flagged for a closer look

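The LPS 30 min effect of Fam107a and of Ripor2, each on 1 probe set, differed between mutant and control hearts by the test of the difference itself. For Fam107a the effect in mutant hearts minus that in control hearts was 1.45 on the log2 scale, and for Ripor2 it was -1.22. Every array of each genotype moved to the same side, and the sides were opposite in mutant and control hearts. Both calls were lost in the fits to 18 and 16 arrays and in 7 of the 12 fits without 1 array: those without mutant LPS 30 min replicate 1 or 2, mutant PBS replicate 3, control LPS 30 min replicate 1 or 2, or control PBS replicate 1 or 2. In 1 further fit, without mutant PBS replicate 1, 1 of the 2 calls was lost.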

How the results depend on the processing

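The comparison of mutant LPS 30 min and mutant PBS hearts called 2006 probe sets. It called 22 with all 18 arrays in the fit, 581 with 16 arrays and 107 with a log2 change of at least 1 required as well, each of them among the 2006, and 806 with the 6 mutant arrays alone, 762 of them among the 2006. Leaving out 1 array gave 894 to 1455, with 894 without PBS replicate 2, 1135 without LPS 30 min replicate 2 and 1176 without PBS replicate 1. Centring each array on its median (2059, of which 58.8% were higher, against 50.6%), quantile normalization (1979), leaving out dim probe sets (1512) or _x_at and _s_at probe sets (1816), and array weights (2741) stayed within 1.5 times. The replicate block gave 2375 for the mutant effect and 7 for the genotype difference. That difference, 2 probe sets, went to 0 with 18 or 16 arrays, 7 with array weights, 5 without _x_at and _s_at probe sets and 0 to 9 without 1 array. Of the 90 named genes, 86 kept their sign in every setting. Of the 46 named genes that were called, 19 also passed with 16 arrays. With the mean of a gene's probe sets, 14 of the 46 called named genes kept their sign but lost the call (Hamp, Fos, Slc5a3, Inpp4b, Mpp5, Prox1, Gpm6a, Nr2f2, Nfkbia, Stat3, Luc7l3, Mtf1, Cspg4 and Ripor2), while Tra2a turned to -0.19 (adjusted p = 0.382) and Xist to -0.10 (adjusted p = 0.753). The medians of 22 of 40 lists changed sign in at least 1 setting. The settings with 18 and 16 arrays for lists were added after the data were seen.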

Other observations

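Genes of cell division, a list of 32 chosen after the values were seen, ran slightly higher in mutant hearts after LPS. Of 31 measured, 7 rose, none fell and 25 were positive, with a median log2 difference of 0.19, where 2.02% of all genes rose and 49.2% were positive. Because the list was chosen with the values in view, these counts describe its members and cannot serve as a test. Mki67, the proliferation antigen, had log2 signals of 7.03, 6.76 and 7.63 in the mutant LPS 30 min hearts against 6.10, 5.94 and 6.66 in the mutant PBS hearts and rose by 0.91 (limma adjusted p = 0.0325). Cep55, which acts in the last step of cell separation, also rose by 0.91 (limma adjusted p = 0.00901). LPS replicate 3 and PBS replicate 3 were the highest of their groups for Mki67. The mean level of the list was 5.51 to 5.80 in the mutant LPS hearts and 5.27 to 5.47 in the mutant PBS hearts, and 5.34 to 5.57 in the control LPS hearts and 5.10 to 5.14 in the control PBS hearts, where 9 rose and 4.34% of all genes did.

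Xist, the RNA of the inactive X chromosome and a check of sex, was bright on all 6 mutant arrays, at 11.43 ± 0.07 after LPS and 11.12 ± 0.07 after PBS (mean ± SD, n = 3 each) on its brightest probe set, a rise of 0.31 (limma adjusted p = 0.0260). Its other probe sets did not pass. One stood at 7.01, 7.31 and 8.25 in the mutant LPS 30 min hearts against 8.09, 8.14 and 8.44 in the mutant PBS hearts. The dimmest stood at 5.96, 5.35 and 5.43 against 6.84, 4.82 and 4.75, so that on it PBS replicate 1 lay above the other mutant arrays.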
